A study of Mus musculus with 4 samples.

Results

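The genes described here are 32 enzymes, carriers and regulators that build fatty acids and triglyceride, taken by symbol from a table of 56748 genes measured in mouse liver. All 32 symbols were found, each on 1 row. The series profiled liver RNA by sequencing in 4 NSG mice, an immunodeficient strain, all with the genotype given as WT. Untreated mice gave 2 livers, and the other 2 came from mice given JIB-04, an inhibitor of Jumonji histone demethylases, by oral gavage at 55 mg/kg for 5 doses, 2 in each week. The design text names 2 mice per group, so values within a group differ by animal. Controls are described only as untreated, with no vehicle named, so gavage and compound cannot be told apart. No source used here gives the age of the mice, their feeding state or the hour of collection. The comparison asks what repeated dosing with the compound did to gene expression in the liver of these mice.

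Fatty acid synthesis in liver starts from citrate that leaves the mitochondrion and is split to acetyl-CoA in the cytosol. Acetyl-CoA carboxylase turns this into malonyl-CoA, fatty acid synthase joins the units into palmitate, and elongases and desaturases lengthen the chain and add double bonds. Acyl chains are then placed one by one on glycerol phosphate, a phosphate is removed by a lipin, and a last acyl transfer gives triglyceride. The transcription factors SREBP-1 (gene Srebf1) and ChREBP (gene Mlxipl) switch on most of these enzymes after feeding, the first under insulin and the second under sugar.

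Library depth was 36469514 to 43283827 reads, and every gene of the list that was tested had at least 100 reads on average, the lowest single value being 56 reads of Elovl3. Values are FPKM, which are reads scaled by gene length and library depth. Genes with a mean of at least 1 FPKM over the 4 libraries were tested, 10819 in all, with limma on log2(FPKM + 1), and a gene was called at a Benjamini-Hochberg adjusted p under 0.05. This gave 232 calls (2.14%), 165 higher (1.53%) and 67 lower (0.619%). The split was 156 higher and 105 lower after rescaling without the 50 most abundant and the mitochondrial genes. The 9 hepatocyte markers tested summed to 62982 and 60938 FPKM in untreated livers 1 and 2 and to 44750 and 36733 with JIB-04. Of these 9 markers, 8 had a log2 change below 0, 0 were called by limma, 2 (Alb and Ass1) were lower at an unadjusted p under 0.05, and voom called Ass1 lower. The hepatocyte transcription factor gene Hnf4a was between 97.7 and 113 FPKM. Ass1, a urea cycle enzyme gene, was at 591 and 807 FPKM against 357 and 379 (limma adjusted p = 0.0612). Alb was at 46658 and 46858 FPKM in untreated 1 and 2 and at 31689 and 22910 in JIB-04 1 and 2 (limma adjusted p = 0.144). The part of these hepatocyte values in the results below was not tested.

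Lpin1 was the only gene of the list to pass the test, and it was lower with JIB-04. It encodes a phosphatidate phosphatase that makes the diacylglycerol from which triglyceride is built, and that also acts in the nucleus as a coregulator. Its level was 18.0 and 21.99 FPKM in untreated livers 1 and 2, against 4.93 and 6.91 in JIB-04 livers 1 and 2. Both treated livers lay far below both untreated livers, 3.37-fold apart in the group means (19.97 ± 2.85 against 5.92 ± 1.404 FPKM, SD, n = 2; log2 change -1.61, SE 0.177, limma adjusted p = 0.0113). The gene lies on the minus strand of chromosome 12 at 16585670 to 16696967 (GRCm39). The call ended without JIB-04 1 (adjusted p = 0.0955), without JIB-04 2 (0.0753) and without the filter on low values (0.168), within a range of 0.000263 to 0.168 over 14 alternatives.

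Of the 31 genes tested, limma thus called 1 lower (3.23%, against 0.619% of all genes tested) and 0 higher (against 1.53%). At an unadjusted p under 0.05 there were 8 lower and 2 higher, or 25.8% and 6.45%, against 6.47% and 9.06% of all genes tested. Voom, a limma method run on the reads behind the FPKM, called 3 lower (Lpin1, Fads2 and Agpat2) and 1 higher (Elovl1), where it called 1.9% and 2.86% of all genes. The median log2 change of the 31 was -0.20, beside 0.01 over all genes tested, and 18 of them were below 0 (58.1%, against 48.6%). In 10 of the 31 both JIB-04 livers lay below both untreated livers (32.3%, against 21.8% of all genes) and in 5 both lay above (16.1%, against 24.6%), which makes 15 without overlap (48.4%, against 46.4%). Another 6 overlapped in part (19.4%, against 42.9%). Other settings over all 4 libraries called up to 3 genes of the list lower. A filter of at least 5 FPKM called 3 lower (1.31% of all genes tested there) and 1 higher (2.95%). Rescaling without the 50 most abundant and mitochondrial genes called 3 lower (0.971%) and 0 higher (1.44%), and quantile normalization 2 lower (0.693%) and 0 higher (1.18%). A fit with the replicate number as a block called 2 lower (1.12%) and 1 higher (2.18%), and no filter gave 0 lower (0.0%) and 0 higher (0.0792%). The remaining gene, Mogat1, a monoacylglycerol acyltransferase, was under the filter with 0, 18, 4 and 7 reads in untreated 1, untreated 2, JIB-04 1 and JIB-04 2. An exact permutation test of 2 against 2 cannot go below p = 0.333, which is why the moderated test is used for single genes.

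**Figure D1:**
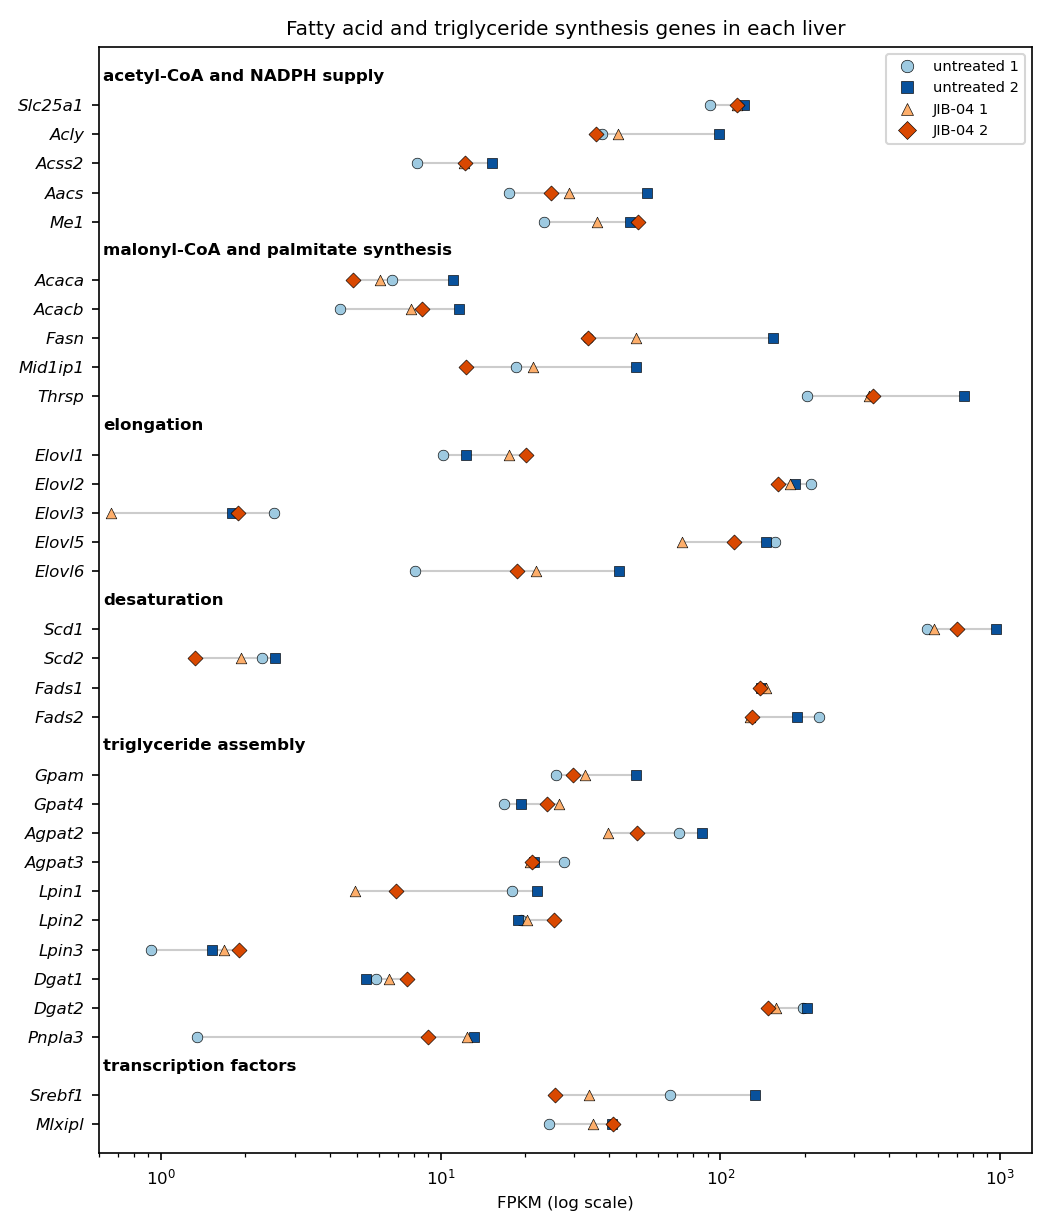
FPKM (horizontal log axis) of the 31 tested genes in each of the 4 livers, grouped by role, with a grey line from the lowest to the highest value. Untreated 2 is the highest library for 18 genes and untreated 1 the lowest for 16. Both JIB-04 livers are inside the untreated range for 10 genes (32.3%, against 10.7% of all genes tested). They are below both untreated livers for 10 (32.3%, against 21.8%), Lpin1 and Srebf1 among them.

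Many genes of the list differed widely between the 2 untreated livers. Untreated 2 was above untreated 1 in 24 of the 31 genes (77.4%, against 49.8% of all genes tested). In 16 of them it was at least 1.5-fold above (51.6%, against 4.43% of all genes tested), and in 10 it was at least 2-fold above (32.3%, against 1.63%). No gene of the list was 2-fold higher in untreated 1, against 1.26% of all genes. The untreated livers were at least 1.5-fold apart, in either direction, in 8.51% of all genes tested. The 2 JIB-04 livers differed by at least 1.5-fold in 3 of the 31 (9.68%, against 9.76%). Untreated 2 was the highest of the 4 livers in 18 genes (58.1%, against 21.9%) and untreated 1 the lowest in 16 (51.6%, against 25.5%). The summed level of the 32 genes was 2220 and 3608 FPKM in untreated livers 1 and 2. It was 2199 and 2322 in JIB-04 livers 1 and 2, so that untreated 2 stood above the other 3 livers. Thrsp (204 and 744 FPKM) and Scd1 (545 and 966) carried much of the gap between the untreated sums. The elongation genes summed to 388.2 and 388.3 FPKM in untreated 1 and 2.

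Among all 10819 genes tested, ranked by the log2 difference of untreated 2 over untreated 1, Pnpla3 came 3rd, Elovl6 7th, Fasn 10th, Thrsp 20th and Aacs 26th. Both JIB-04 livers fell inside the range of the untreated livers for 10 of the 31 genes (32.3%, against 10.7% of all genes tested). For the 16 genes with the wide gap the JIB-04 livers were inside that range in 9, below it in 2 (Acaca and Srebf1), above it in 1 (Lpin3) and partly outside in 4. For the other 15 they were below both untreated livers in 8, above both in 4, inside in 1 and partly outside in 2. This division was made on values of the same libraries and describes them only. A wide gap by itself leaves more room inside the untreated range, and a narrow one less. All genes tested were not divided in this way, so no share stands beside these counts.

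**Figure D2:**
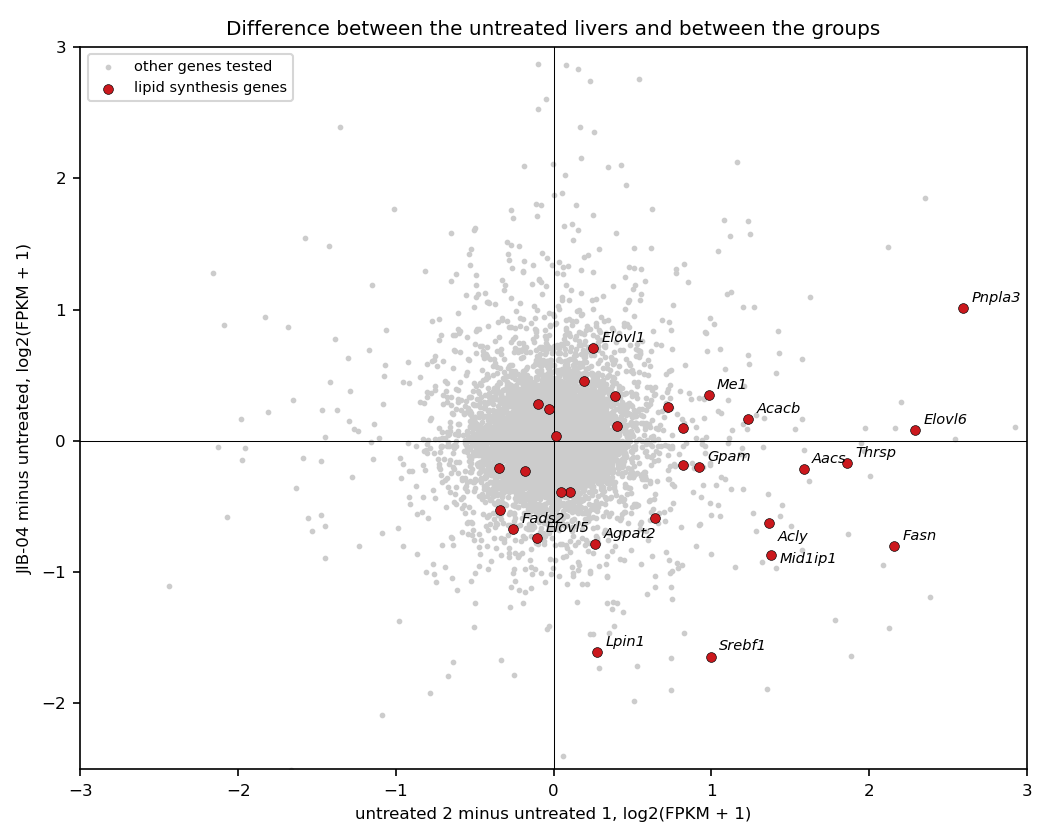
For each gene tested, the log2(FPKM + 1) difference between the untreated livers (horizontal) and between the group means (vertical), with the 31 genes of the list in red and 24 genes outside the axes. Pnpla3, Elovl6, Fasn and Thrsp lie far to the right, while Lpin1 and Srebf1 are the lowest of the list.

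Promoters of 4 genes with a wide untreated gap (Fasn, Thrsp, Pnpla3 and Srebf1) are shown here beside that of Lpin1, which was called with little gap. RefSeq promoters (GRCm38.p6, an older build than that of the expression table) were matched by symbol for 25 of the 32 genes, 35 promoters in all. Each line gives the 150 bases up to the start site, 5′ to 3′ on the gene's strand, with capitals for CCAAT (the box bound by NF-Y, a partner of SREBP), GGGCGG (a GC box bound by Sp1) and CACGTG (the E-box core), read on both strands, so that ATTGG marks CCAAT on the other strand. The windows are chr11:120824548-120824697 (minus) for Fasn, chr7:97417551-97417700 (minus) for Thrsp, chr15:84167666-84167815 (plus) for Pnpla3, chr11:60222582-60222731 (minus) for the 1 of 3 Srebf1 starts that matches a GENCODE M21 transcript, and chr12:16610967-16611116 (minus) for Lpin1.
Fasn: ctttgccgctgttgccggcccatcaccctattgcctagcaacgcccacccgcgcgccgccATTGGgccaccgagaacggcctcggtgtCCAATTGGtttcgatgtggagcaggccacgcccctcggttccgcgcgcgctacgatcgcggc
Thrsp: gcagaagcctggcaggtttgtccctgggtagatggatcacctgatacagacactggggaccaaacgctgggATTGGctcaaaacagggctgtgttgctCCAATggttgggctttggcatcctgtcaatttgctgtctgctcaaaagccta
Pnpla3: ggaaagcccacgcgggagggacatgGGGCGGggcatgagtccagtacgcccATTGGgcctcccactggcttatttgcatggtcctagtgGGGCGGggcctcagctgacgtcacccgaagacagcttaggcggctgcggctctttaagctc
Srebf1: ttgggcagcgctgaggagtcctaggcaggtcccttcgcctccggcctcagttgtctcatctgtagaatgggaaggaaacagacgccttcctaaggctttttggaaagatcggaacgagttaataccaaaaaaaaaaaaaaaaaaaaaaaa
Lpin1: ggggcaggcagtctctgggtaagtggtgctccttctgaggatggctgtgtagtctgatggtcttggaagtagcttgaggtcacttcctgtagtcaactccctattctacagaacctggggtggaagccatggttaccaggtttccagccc
The Fasn window holds 3 CCAAT boxes, 2 of which overlap in opposite directions, the Thrsp window holds 2, and Pnpla3 has 1 with 2 GC boxes. None of the 3 motifs is in the Lpin1 window or in this Srebf1 window. The Srebf1 windows not shown do hold some of them. GGGCGG is on both strands of chr11:60220628-60220777, and CCAAT and GGGCGG are in chr11:60210472-60210621, though neither start matches a GENCODE M21 transcript. A match here means that the bases just after the start occur exactly in a transcript of the gene. A start a few bases upstream of an annotated one would fail it. Which Srebf1 start is used in these livers is therefore not known from the match. Taken over 250 bases before the start, CCAAT was in promoters of 13 of the 25 matched genes. Of these, Elovl1, Elovl5, Lpin2 and Slc25a1 had little untreated gap, and the others had the wide gap. Among matched genes with GGGCGG but no CCAAT, Acly, Lpin3 and Mid1ip1 had the wide gap, and Agpat2, Elovl2 and Fads2 had not. Whether any motif divides the list by that gap was not tested. The Pnpla3 start has no matching transcript in GENCODE M21. Over the 250 bases before the start, CCAAT was in 14 of the 35 promoters (40%, against 33.8% of 32851 RefSeq promoters) and GGGCGG in 18 (51.4%, against 32.7%). CACGTG was in 4 (11.4%, against 6.02%) and TCACNCCAC, a form of the sterol regulatory element, in 1, that of Mlxipl (2.86%, against 1.05%). These are matches of letters in short windows, and binding was not measured.

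Genes that supply acetyl-CoA and NADPH were all higher in untreated 2 than in untreated 1, and none of the 5 passed the test by limma or voom, nor at an unadjusted p under 0.05. Acly, the ATP citrate lyase that makes cytosolic acetyl-CoA, was at 37.7 and 98.9 FPKM in untreated 1 and 2 and at 43.2 and 35.9 in JIB-04 1 and 2. The JIB-04 livers thus lay beside untreated 1 (log2 change -0.62, SE 0.542, limma adjusted p = 0.695). Aacs, which activates acetoacetate for lipid synthesis, was at 17.6 and 54.8 FPKM in the untreated livers and at 28.7 and 24.8 in the JIB-04 livers, all inside the untreated range. The malic enzyme gene Me1, a source of NADPH, was at 23.5 and 47.4 FPKM in the untreated livers and at 36.3 and 50.5 in the JIB-04 livers, JIB-04 2 being slightly above untreated 2. Acss2, which makes acetyl-CoA from acetate, was at 8.22 and 15.3 FPKM in untreated livers, with both JIB-04 livers between them (12.1 and 12.2). Gss overlaps Acss2 by 22544 bases on the opposite strand, at 13.9 and 12.4 against 14.1 and 14.2 FPKM. The citrate carrier Slc25a1 had the smallest gap of the 5, with 91.9 and 122 FPKM in the untreated livers and 114 in each JIB-04 liver (adjusted p = 0.816).

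Genes of malonyl-CoA and palmitate synthesis had the strongest division between the untreated livers, with a median log2 difference of 1.38 between them. Fasn, the fatty acid synthase (chromosome 11, 120696672 to 120715373, GRCm39), was at 33.60 and 154 FPKM in untreated 1 and 2, a 4.57-fold gap. JIB-04 1 and 2 were at 49.8 and 33.62, so the treated pair began at the level of the lower untreated liver. The mean difference (93.6 ± 84.85 against 41.7 ± 11.4 FPKM, SD, n = 2; log2 change -0.80, SE 0.935, limma adjusted p = 0.789) was smaller than its standard error. Thrsp, a hepatic stimulator of lipogenesis also called Spot 14, was at 204 and 744 FPKM in the untreated livers and at 341 and 351 in the JIB-04 livers. Its relative Mid1ip1, which promotes polymerization of acetyl-CoA carboxylase, was at 18.5 and 49.8 FPKM in the untreated livers and 21.4 and 12.3 in the JIB-04 livers, and JIB-04 2 was the lowest of the 4.

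Of the 2 acetyl-CoA carboxylase genes, 1 had both JIB-04 livers below the untreated range. Acaca, the cytosolic form for synthesis, was at 6.71 and 11.04 FPKM in the untreated livers and 6.06 and 4.83 in the JIB-04 livers, without overlap (log2 change -0.59, SE 0.235, unadjusted p = 0.0492, limma adjusted p = 0.319). Acacb, the mitochondrial-surface form whose product restrains fatty acid oxidation, was at 4.34 and 11.6 FPKM in the untreated livers and at 7.83 and 8.60 in the JIB-04 livers, inside the untreated range (adjusted p = 0.923). Reads of Acaca are less certain, because 30.4% of the 50-base stretches of its transcripts occur in other genes (first of all the pseudogene Gm5182), and likewise 22.9% for Me1. Gm11437 overlaps Acaca by 19126 bases on the opposite strand. It was at 3.92 and 5.13 FPKM in the untreated livers and 2.39 and 2.37 in the JIB-04 livers. None of the 5 genes of this step was called by limma or voom, and Acaca alone had an unadjusted p under 0.05.

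Among the elongases, only Elovl6 had the wide gap between the untreated livers. It lengthens palmitate to stearate and was at 8.06 and 43.4 FPKM in the untreated livers and at 21.8 and 18.7 in the JIB-04 livers. The other elongases varied little between untreated livers, and in Elovl1 and Elovl5 the JIB-04 livers lay on opposite sides of them. Elovl1, which extends saturated and monounsaturated very long chains, was at 10.1 and 12.3 FPKM in the untreated livers and at 17.6 and 20.1 in the JIB-04 livers, with no overlap (log2 change 0.71, SE 0.140, limma adjusted p = 0.0614). Elovl5, which extends polyunsaturated chains, was at 157 and 146 FPKM in the untreated livers and at 72.6 and 112 in the JIB-04 livers (log2 change -0.74, SE 0.213, adjusted p = 0.165). Neither passed the main test. Cdc20 overlaps Elovl1 by 53 bases on the opposite strand and was at 0.482 and 0.808 against 4.27 and 2.87 FPKM. Elovl1 passed with voom (adjusted p = 0.0148), with the replicate block (0.0345) and with a filter of at least 5 FPKM (0.0381), within a range of 0.0148 to 0.314 over alternatives.

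Elovl2, which makes the longest polyunsaturated chains, was at 210.4 and 185 FPKM in the untreated livers and 177 and 160.2 in the JIB-04 livers (adjusted p = 0.518). Elovl3, an elongase of saturated chains, was low in all livers, with 2.54 and 1.80 FPKM in the untreated livers and 0.661 and 1.88 in the JIB-04 livers. Limma called none of the 5 elongases, Elovl1 and Elovl5 were under an unadjusted p of 0.05, and voom called Elovl1.

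Scd1, the main stearoyl-CoA desaturase of liver, had the highest level of the list. It was at 545 and 966 FPKM in the untreated livers and at 580.3 and 700.1 in the JIB-04 livers, inside the untreated range (log2 change -0.19, SE 0.292, limma adjusted p = 0.838). The desaturases of polyunsaturated fatty acids had little gap between the untreated livers. Fads2, the delta-6 desaturase and first step of that route, was at 225 and 188 FPKM in the untreated livers and at 128 and 129 in the JIB-04 livers, without overlap (log2 change -0.67, SE 0.140, adjusted p = 0.0674). Its neighbour on chromosome 19, the delta-5 desaturase Fads1, was at 138 and 139 FPKM in the untreated livers and 146 and 139 in the JIB-04 livers, the narrowest range of the list (log2 change 0.03, SE 0.121, adjusted p = 0.938). That sign turned with 2 of the scalings, to -0.02 and -0.08.

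Fads2 passed with voom (adjusted p = 0.0138), with a filter of at least 5 FPKM (0.0427), with quantile normalization (0.0387) and after rescaling without the most abundant genes (0.0450), in a range of 0.0138 to 0.314. Scd2, a desaturase of other tissues such as brain, was low at 2.30 and 2.54 FPKM in the untreated livers and 1.93 and 1.32 in the JIB-04 livers (adjusted p = 0.302). Scd1 and Scd2 share 4.56% and 3.97% of their 50-base stretches with other genes, mainly each other and Scd3, which was under 0.1 FPKM in every library. Limma called none of the 4 desaturase genes, while Fads2 and Scd2 were under an unadjusted p of 0.05.

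Triglyceride assembly begins with acyl transfer to glycerol phosphate, and there the mitochondrial enzyme gene Gpam had the wide untreated gap. It was at 25.9 and 49.9 FPKM in the untreated livers and at 32.8 and 29.7 in the JIB-04 livers (limma adjusted p = 0.850). Gpat4, the enzyme of the endoplasmic reticulum for the same step, was at 16.8 and 19.3 FPKM in the untreated livers and at 26.4 and 24.1 in the JIB-04 livers, higher without overlap but not called (log2 change 0.46, SE 0.129, adjusted p = 0.146). At the next acylation, Agpat2 was at 71.0 and 85.6 FPKM in the untreated livers and at 39.7 and 50.5 in the JIB-04 livers, lower without overlap (log2 change -0.79, SE 0.164, adjusted p = 0.0675). Its call depended on the setting, since it passed with voom (0.00987), the replicate block (0.0236), a filter of at least 5 FPKM (0.0417) and rescaling without the most abundant genes (0.0457), in a range of 0.00987 to 0.350. Agpat3, an acyltransferase of the same family, was at 27.6 and 21.5 FPKM in the untreated livers and 20.8 and 21.2 in the JIB-04 livers (adjusted p = 0.585).

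The 3 lipins, which share the phosphatase step, did not share a direction. Beside the fall of Lpin1, Lpin2 was at 19.3 and 18.9 FPKM in the untreated livers and at 20.4 and 25.5 in the JIB-04 livers (log2 change 0.25, SE 0.141, limma adjusted p = 0.486), and Lpin3 at 0.923 and 1.52 against 1.67 and 1.90 (adjusted p = 0.419). Lpin1 made up 47.0% and 51.9% of the summed lipin FPKM in untreated livers 1 and 2, against 18.2% and 20.2% in JIB-04 livers 1 and 2. The sum itself was 38.2 and 42.4 FPKM in the untreated livers and 27.0 and 34.3 in the JIB-04 livers.

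The final acylation has 2 unrelated enzymes. Dgat2, the form tied to newly made fatty acids, was at 198 and 204 FPKM in the untreated livers and at 158 and 148 in the JIB-04 livers, lower without overlap (log2 change -0.39, SE 0.124, limma adjusted p = 0.195). Dgat1 was at 5.84 and 5.38 FPKM in the untreated livers and at 6.53 and 7.57 in the JIB-04 livers, above both untreated values (log2 change 0.28, SE 0.127, adjusted p = 0.360). Neither passed the test, and Dgat2 remained by far the more abundant of the pair in each liver. Pnpla3, a lipid droplet protein whose human form is tied to fatty liver, had the widest gap of the list, with 1.34 and 13.1 FPKM in untreated 1 and 2 (76 and 769 reads). JIB-04 livers were at 12.4 and 9.03 FPKM, close to untreated 2 rather than to untreated 1, opposite to Fasn and Acly (log2 change 1.01, SE 1.14, adjusted p = 0.783). Pnpla3 (chromosome 15, 84052038 to 84071437, GRCm39) shares 5.14% of its 50-base stretches with other genes.

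Srebf1 had a negative log2 change near that of Lpin1 but did not pass the test. The gene (chromosome 11, 60089915 to 60113407, GRCm39) was at 66.2 and 133 FPKM in the untreated livers and at 33.8 and 25.5 in the JIB-04 livers. Both treated livers were below the lower untreated liver, while the untreated livers were themselves 2.01-fold apart (99.7 ± 47.3 against 29.7 ± 5.81 FPKM, SD, n = 2; log2 change -1.64, SE 0.388, limma adjusted p = 0.168). Mlxipl, which encodes ChREBP, was at 24.3 and 40.9 FPKM in the untreated livers and at 34.9 and 41.4 in the JIB-04 livers, so the 2 lipogenic transcription factor genes differed in where the treated livers lay (adjusted p = 0.716).

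Enzyme genes that SREBP-1 is known to switch on were set against Srebf1 itself in each liver. The ratio of Fasn to Srebf1 FPKM was 0.507 and 1.15 in untreated livers 1 and 2, against 1.47 and 1.32 in JIB-04 livers 1 and 2. For Acly over Srebf1 it was 0.569 and 0.743 against 1.28 and 1.40, and for Scd1 over Srebf1 8.23 and 7.26 against 17.2 and 27.4. Each of these ratios was higher in both JIB-04 livers than in both untreated livers, and this was not tested. The ratios share the denominator Srebf1, itself lower in both JIB-04 livers, so they are not separate from that difference. The total Srebf1 level does not separate its isoforms, for which RefSeq gives 3 promoters.

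**Figure D3:**
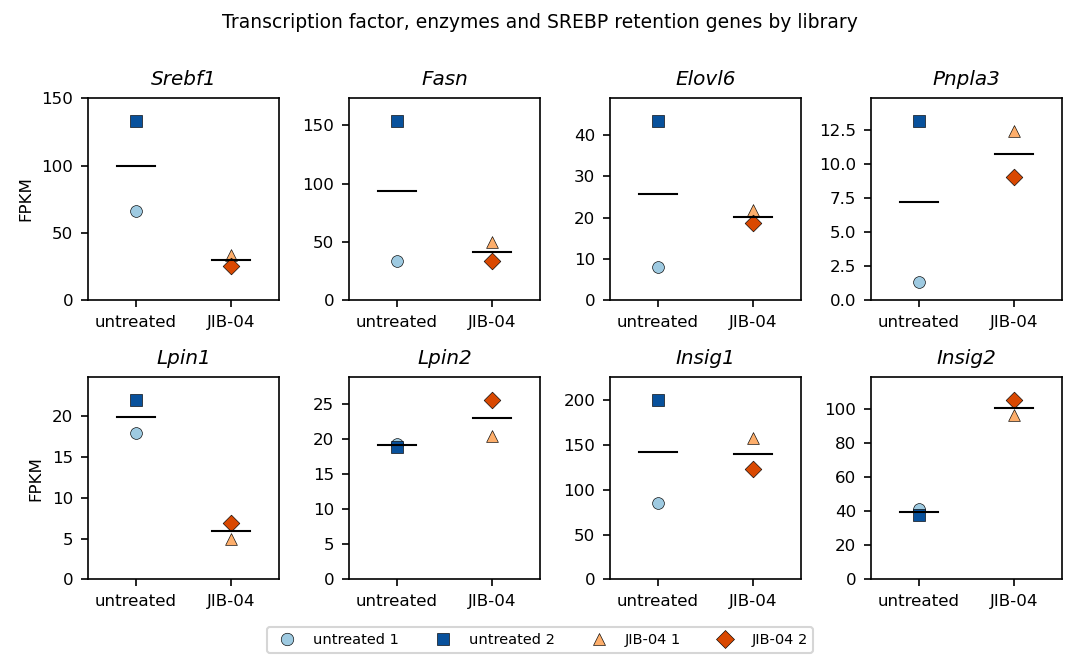
FPKM (vertical axis, from 0) of 8 genes in each liver, with a black line at each group's mean. Fasn, Elovl6 and Pnpla3 spread widely between the untreated livers, whereas Lpin1 is lower and Insig2 higher in both JIB-04 livers.

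The log2 changes of the list depended on which untreated liver was the reference. Without untreated 1 the changes were below 0 in 25 of the 31 genes (median -0.44), and without untreated 2 in 12 (median 0.23). Leaving out untreated 1, limma called 6 genes lower (19.4%, against 0.499% of all genes tested) and 0 higher (against 0.943%). These were Srebf1 (adjusted p = 0.00594), Lpin1 (0.0140), Acly (0.0245), Fasn (0.0300), Thrsp (0.0305) and Elovl6 (0.0472). Leaving out untreated 2, it called Lpin1 lower (3.23%, against 0.444%) and Pnpla3 (0.00468) and Elovl6 (0.0262) higher (6.45%, against 0.989%). Elovl6 was therefore called in opposite directions against each untreated liver alone, with log2 changes of -1.07 and 1.22. With all 4 libraries adjusted p was 0.168 for Srebf1 and between 0.695 and 0.986 for Acly, Fasn, Thrsp, Pnpla3 and Elovl6. Without JIB-04 1 it called 0 genes of the list higher and 0 lower (against 0.259% and 0.0185%), and likewise without JIB-04 2 (against 0.203% and 0.00924%). In these fits the lone library of a group is assumed to vary like the other group.

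**Figure D4:**
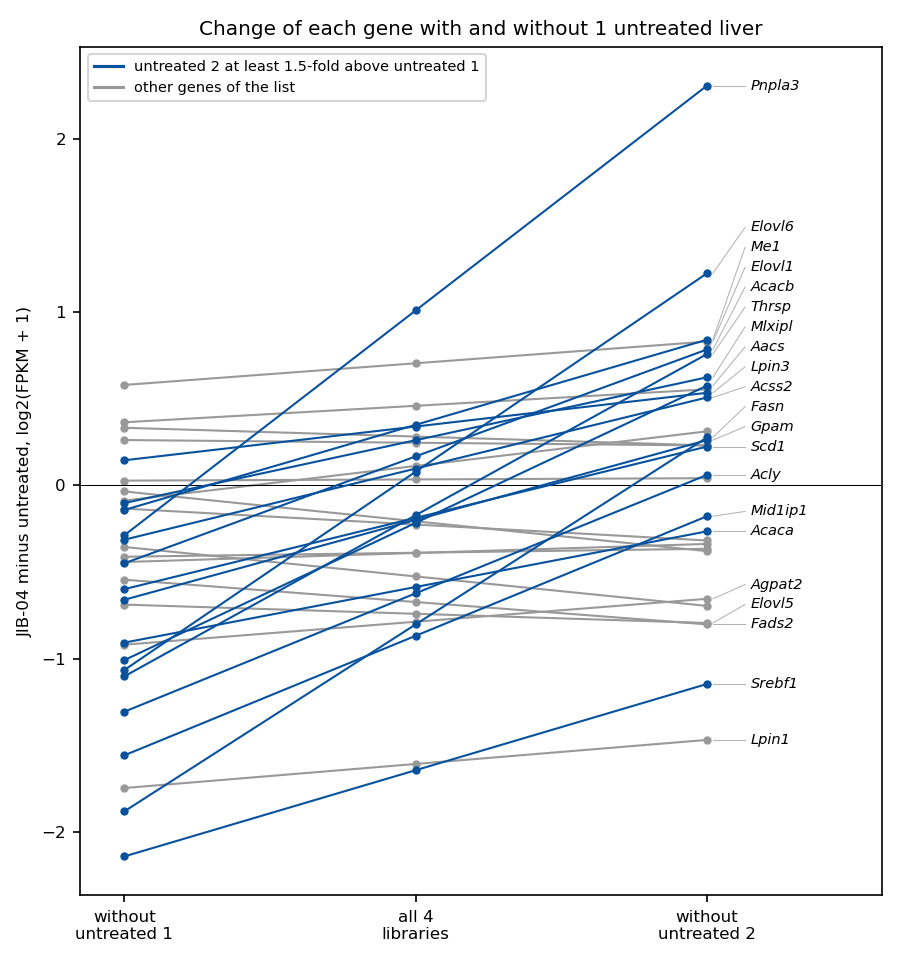
Log2(FPKM + 1) change of each of the 31 genes with JIB-04 (vertical axis) without untreated 1, with all 4 libraries and without untreated 2. The 16 genes in blue were chosen for their untreated gap, which fixes that they climb from left to right. Several of the 31 cross 0, whereas others stay below it (such as Lpin1, Srebf1, Acaca and Mid1ip1) or above it (such as Elovl1).

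Regulators of lipogenesis were chosen as a list of 33 genes, of which limma tested 32 and called 2 higher (against 1.53% of all genes) and 0 lower (against 0.619%). At an unadjusted p under 0.05 there were 3 higher and 1 lower (9.06% and 6.47% of all genes), and voom called 2 higher (2.86%) and 0 lower (1.9%). Insig2, which holds the SREBP escort protein SCAP in the endoplasmic reticulum, rose from 41.3 and 37.6 FPKM in untreated to 96.8 and 105 in the JIB-04 livers (2.56-fold; log2 change 1.34, SE 0.125, adjusted p = 0.00528). Its relative Insig1, which SREBP itself induces and which was chosen after its values were seen, had a gap between the untreated livers, with 85.1 and 200.3 FPKM in the untreated livers and 158 and 123 in the JIB-04 livers. Tm6sf2, which acts in loading lipid onto lipoproteins, rose from 19.6 and 19.8 FPKM to 39.4 and 36.0 (log2 change 0.90, SE 0.118, adjusted p = 0.0186). The next members by p were Pparg, a nuclear receptor of lipid storage (3.27 and 2.48 FPKM against 4.19 and 4.67, adjusted p = 0.166), and Usf2, an E-box factor (14.9 and 13.8 against 9.94 and 11.8, adjusted p = 0.235). The Insig2 call ended without JIB-04 1 (0.0696), without JIB-04 2 (0.0933) and without the filter on low values (0.102), in a range of 6.37e-05 to 0.102. That of Tm6sf2 ended without any of the 4 libraries (0.0640 to 0.127) and without that filter (0.169), in a range of 0.00133 to 0.169.

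Other genes of the pathway, 28 tested of 39 listed, gave 0 calls by limma, with a median log2 change of 0.11. At an unadjusted p under 0.05 there were 4 higher and 1 lower (9.06% and 6.47% of all genes), and voom called Fads3 lower (1.9%). Fads3, which lies beside Fads1 and Fads2, was at 3.45 and 4.63 FPKM in the untreated livers and at 1.09 and 1.85 in the JIB-04 livers (adjusted p = 0.0564). The dehydratases of the elongation cycle Hacd1 and Hacd2 were at 2.05 and 3.49 against 4.72 and 5.89 FPKM (adjusted p = 0.152) and at 13.2 and 13.0 against 17.4 and 18.4 (0.137). Agpat1 was at 3.71 and 4.49 FPKM in the untreated livers and 5.54 and 5.73 in the JIB-04 livers (adjusted p = 0.219). LXR target genes, which report on the oxysterol receptor that also drives Srebf1, had 0 of 9 called by limma or voom and 1 higher at an unadjusted p under 0.05, against 9.06% of all genes (Lpcat3, 28.0 and 24.7 against 31.3 and 36.9 FPKM, adjusted p = 0.280).

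Genes that answer sugar or fasting also divided the untreated livers. Both lists were chosen with earlier results of these data known, so their counts are descriptions only. All 11 sugar-responsive genes were higher in untreated 2 than in untreated 1, against 49.8% of all genes tested, with a median log2 difference of 0.25. Pklr, the liver pyruvate kinase gene, was at 51.4 and 115 FPKM in the untreated livers and at 40.9 and 37.3 in the JIB-04 livers (limma adjusted p = 0.423). Limma called 0 of the 11, with 3 lower at an unadjusted p under 0.05 (6.47% of all genes) and 1 lower with voom (1.9%), and Pfkfb1 (6.55 and 7.26 against 4.27 and 4.18 FPKM, adjusted p = 0.0618) and Slc2a2 (76.8 and 86.0 against 55.5 and 58.8, 0.112) were among those of lowest p.

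Fasting-responsive genes ran the other way between the untreated livers, with 11 of 15 tested lower in untreated 2 and a median log2 difference of -0.73. The other 4 were higher in untreated 2, against 49.8% of all genes tested. Chosen after their values were seen, Igfbp1, a secreted protein gene that insulin represses, was at 18.3 and 3.61 FPKM in the untreated livers and at 2.28 and 11.1 in the JIB-04 livers, and Vnn1, a PPAR-alpha target, at 20.3 and 3.76 against 14.0 and 38.9. Between the JIB-04 livers the same list had a median log2 difference of 0.50 (JIB-04 2 minus JIB-04 1), while that of the lipid synthesis genes was 0.01. By group limma called 0 of the 15. At an unadjusted p under 0.05 there were 3 higher and 3 lower (9.06% and 6.47% of all genes), and 1 lower with voom (1.9%). The members of lowest p were G6pc (93.5 and 118 against 34.3 and 56.9 FPKM, adjusted p = 0.111), Ppargc1a (1.49 and 1.71 against 0.860 and 0.715, 0.126), Pdk4 (1.41 and 1.5003 against 2.07 and 3.20, 0.196) and Creb3l3 (104 and 96.2 against 127 and 133, 0.210). The part of feeding state in the values of the lipid synthesis genes was not tested.

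**Figure D5:**
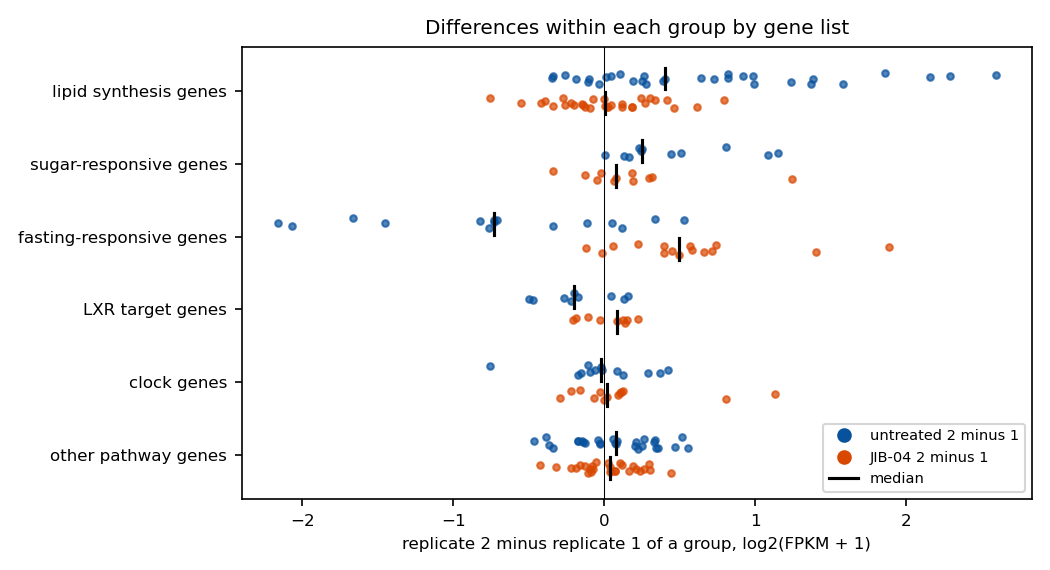
Log2(FPKM + 1) difference of replicate 2 minus replicate 1 within the untreated (blue) and the JIB-04 group (orange), 1 point per tested gene, with the median of each list in black. The lipid synthesis genes reach far to the right in the untreated pair only, where fasting-responsive genes lie mostly to the left.

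Clock genes had a median log2 difference of -0.02 between the untreated livers, with single genes from -0.75 (Nfil3, 9.54 and 5.25 FPKM) to 0.43 (Ciart, 9.85 and 13.6), both named after their values were seen. In 7 of 13 tested both JIB-04 livers were below both untreated livers, against 21.8% of all genes tested. Limma called 0 of the 13. At an unadjusted p under 0.05 there were 5 lower (6.47% of all genes), and 2 with voom (1.9%). Of lowest p were Hlf (9.40 and 9.27 against 5.93 and 6.04 FPKM, adjusted p = 0.0617), Per1 (10.6 and 9.45 against 6.76 and 6.60, 0.0910), Tef (32.6 and 32.3 against 24.9 and 22.2, 0.136) and Cry1 (4.64 and 4.99 against 3.66 and 2.99, 0.185). Lpin1 lay on the same side, and the part of the hour of collection in its value was not tested.

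Markers of other cell types were followed as summed levels. The 10 adipocyte markers, a cell type rich in the same enzymes, summed to 1.502 and 1.15 FPKM in the untreated livers and 0.347 and 0.312 in the JIB-04 livers, 4 of them (Lep, Retn, Slc36a2 and Ucp1) with no read in any library. Summed macrophage markers were at 471 and 405 FPKM in the untreated livers and 351 and 440.04 in the JIB-04 livers, endothelial markers at 106 and 82.1 against 84.3 and 87.0, stellate cell markers at 57.3 and 43.7 against 42.4 and 40.03, and cholangiocyte markers at 40.1 and 34.4 against 36.1 and 43.8. Macrophage, endothelial and stellate markers were mostly higher in untreated 1, with untreated 2 above it in 1 of 9, 0 of 8 and 1 of 6, opposite to the lipid synthesis genes. All 9 macrophage markers had a log2 change below 0 with JIB-04, as did 6 of 8 endothelial and 4 of 6 stellate markers (48.6% of all genes). The part of these cell types in the results was not tested. The 6 pancreatic acinar markers summed to at most 0.351 FPKM. Of the 9, 8, 6 and 1 tested macrophage, endothelial, stellate and cholangiocyte markers 0 were called by limma. At an unadjusted p under 0.05 there was only the stellate cell gene Lrat, at 5.35 and 5.15 FPKM against 3.10 and 3.03, (limma adjusted p = 0.0549), which voom called lower. In whole liver, fewer cells of a type and less RNA per cell cannot be told apart.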

How the data were processed

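Liver RNA was sequenced in 2 untreated and 2 JIB-04 treated NSG mice. The authors deposited 1 table of FPKM per gene and library with gene lengths, per the file headers, and the build is GRCm39, per the submitters' processing notes. How reads were aligned and counted, with which annotation and whether by strand, is not stated there, so reads of overlapping or near-identical genes may be misassigned.

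FPKM times gene length came out as whole multiples of 1 step per library (tolerance 0.01), which gave the reads behind each value. Genes with a mean of at least 1 FPKM were fitted with limma 3.58.1 (R 4.3.3, trend and robust moderation) on log2(FPKM + 1), which understates changes of low genes. P-values were adjusted by Benjamini-Hochberg over all genes tested. On simulated data this fit recovered the direction of the changed genes, but false calls made up a larger share of its calls than the threshold of 0.05 allows. Other pseudocounts, filters, scalings, voom on the recovered reads, a replicate block and each library left out were tried.

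The members and the other gene lists were chosen with earlier results of these data known. All members are described. From each other list at most the 4 of lowest p are named, with any gene that a count of 5 or fewer rests on. Some genes of the other lists are not reported here. No protein sequences were used here.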

Additional observations from a re-analysis of the deposited data

How the results depend on the processing

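The count of all genes called, 232, was 20 without the filter on low values, 515 with voom on recovered reads, 357 with the replicate block and 23 to 156 with 1 library left out. In the lipid synthesis genes, 1 was called lower. That number was 0 without the filter, 3 with a filter of at least 5 FPKM, 3 after rescaling without the 50 most abundant and mitochondrial genes, 2 with quantile normalization, 3 with voom and 0 to 6 with 1 library left out. The number called higher, 0, became 1 with the filter of at least 5 FPKM, 1 with voom and 0 to 2 with 1 library left out. The labels give only shared replicate numbers, and deviations of same-numbered libraries did not go together (r = -0.0492 across 10819 genes, which are not independent replicates). The replicate block called 1 lipid synthesis gene higher (Elovl1) and 2 lower (Lpin1 and Agpat2).

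The median log2 change of the list ran from -0.44 to 0.23 with 1 library left out. Fads1 reversed to -0.0217 after rescaling without the most abundant genes and to -0.0758 with quantile normalization. With 1 library left out, the sign turned for 14 genes, with these ranges of log2 change: Slc25a1 -0.0878 to 0.31, Acly -1.31 to 0.0608, Acss2 -0.31 to 0.51, Aacs -1.01 to 0.58, Me1 -0.14 to 0.84, Acacb -0.45 to 0.78, Fasn -1.88 to 0.28, Thrsp -1.10 to 0.76, Elovl6 -1.07 to 1.22, Scd1 -0.60 to 0.22, Fads1 -0.00116 to 0.0701, Gpam -0.66 to 0.26, Pnpla3 -0.29 to 2.31 and Mlxipl -0.10 to 0.62. The cause was not tested. With 2 livers in a group, a single animal can set the direction of a gene.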
